A study of Oryza sativa with 6 samples.

Results

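The 6 genes described here serve iron acquisition and metal movement in rice: the nicotianamine synthase genes NAS1 (LOC4332608) and NAS2 (LOC4332607), the carrier gene YSL15 (LOC9268232), the metal transporter genes IRT1 (LOC4333669) and IRT2 (LOC4333667), and NRAMP5 (LOC4342859). They were found by symbol or synonym in the rice gene annotation. Each had 1 probe set on the array that was assigned to that gene alone, so 6 probe sets stand for 6 of the 17905 genes that had at least 1 such probe set. The genes were picked after the differences between the genotypes in these same arrays had been seen. Their changes and calls are therefore given as a description and support nothing.

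Leaf RNA of rice (Oryza sativa) aged 4 weeks was measured on a 1-colour Affymetrix Rice Genome Array. The 3 OX arrays are from transgenic plants that overexpress OsCGA1, which encodes a GATA transcription factor, and the 3 WT arrays are from wild type plants, each a biological replicate per the labels. Both genotypes grew in chambers with a 16 h day at 28 °C and an 8 h night at 23 °C. The promoter that drives the transgene and the number of independent lines are not given in the sources used here, nor is any iron supply, and OsCGA1 itself was not analysed. The values are linear signals, and changes are differences of log2(signal + 3), OX minus WT, followed by ± their standard error (n = 3 arrays per genotype). A probe set passed the test at an adjusted p under 0.05 from limma, adjusted over all 28456 tested probe sets, and "fell" or "rose" is used only for these.

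Grasses take up iron in a way of their own. Nicotianamine synthase joins molecules of S-adenosylmethionine into nicotianamine, a metal chelator that moves iron, zinc and copper within the plant and is also the precursor of the phytosiderophores, which roots release to bind ferric iron in the soil. Rice takes the iron-phytosiderophore complex back up through YSL15 and, unlike many grasses, also takes up ferrous iron through the IRT carriers. These genes are known for their response to iron deficiency, mainly in roots, while nicotianamine synthesis also serves iron distribution in leaves.

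The transcripts of both nicotianamine synthase genes and of YSL15 were about 3-fold lower in OX leaves than in WT leaves, while those of NRAMP5 overlapped between the genotypes. IRT1 fell by less, and IRT2 had a lower mean that did not pass. In all, 4 of the 6 probe sets passed, 4 lower and 0 higher in OX. Over all tested probe sets 7.44% passed in the lower direction, 8.65% in the higher direction and 16.1% in either. The signals of the 4 that passed did not overlap between the genotypes, nor did those of 38.7% of all tested probe sets, 22.0% with OX lower. Since the genes were picked on this contrast, nothing is read from these shares. All 6 probe sets lay above the filter on low signals, a mean of at least 16.8 over the 6 arrays, NRAMP5 with a mean of 21.4.

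**Figure D1:**
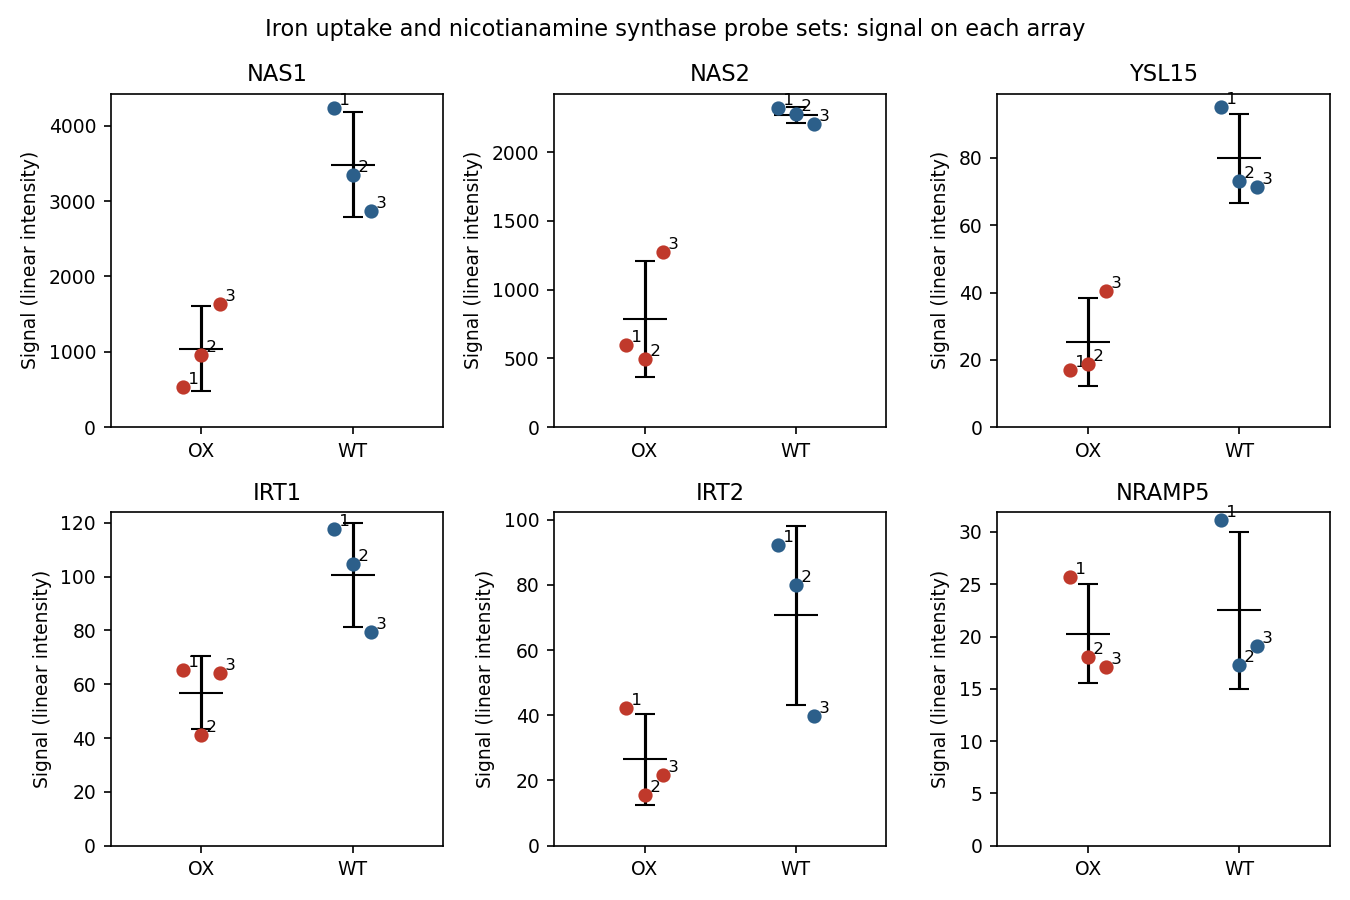
Linear signal (y axis, starting at 0, with its own scale in each panel) of the 6 probe sets on the OX arrays (red, left) and the WT arrays (blue, right). Numbers mark the replicate, horizontal bars the mean and whiskers the SD (n = 3). The genotypes are apart for NAS1, NAS2, YSL15 and IRT1, and overlap for IRT2 and NRAMP5.

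NAS1 had signals of 526.3, 960.7 and 1639.0 on OX arrays 1, 2 and 3, against 4238.4, 3340.2 and 2872.4 on WT arrays 1, 2 and 3. All OX arrays were below all WT arrays, and the lowest WT signal was 1.75 times the highest OX signal. The means were 1042 ± 561 in OX and 3484 ± 694 in WT (SD, n = 3 each), and the log2 change was -1.87 ± 0.36 with an adjusted p of 0.0133 from limma. The fall held in direction under every alternative run, but without WT replicate 1 it was -1.72 with an adjusted p of 0.0552.

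NAS2, the neighbour of NAS1 with 0 annotated genes between them, had signals of 594.1, 497.6 and 1274.6 in OX and 2324.2, 2278.5 and 2207.7 in WT. The WT arrays lay close together and the OX arrays spread widely, with replicate 3 nearest to WT. Means were 789 ± 424 in OX and 2270.1 ± 58.7 in WT (SD, n = 3 each). The log2 change was -1.65 ± 0.30 with an adjusted p of 0.0111 from limma, and it passed in all 15 alternatives. The genes are close paralogs, and no probe sequence was used here, so whether the NAS1 and NAS2 probe sets each read a single transcript was not tested.

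YSL15, the carrier of ferric iron bound to deoxymugineic acid, had signals of 17.0, 18.8 and 40.4 in OX and 95.0, 73.2 and 71.4 in WT. The genotypes did not overlap, and OX replicate 3 was again the array nearest to WT. Means were 25.4 ± 13.0 in OX and 79.9 ± 13.1 in WT (SD, n = 3 each), with a log2 change of -1.63 ± 0.31 and an adjusted p of 0.0129 from limma. Without WT replicate 1 the change was -1.50 with an adjusted p of 0.0544. These signals are low, so the size of the change depends on the pseudocount (-1.71 with a pseudocount of 1 and -1.34 with 12).

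IRT1, a ferrous iron carrier of the ZIP family, had signals of 65.2, 41.1 and 64.3 in OX and 117.6, 104.8 and 79.4 in WT. The genotypes did not overlap, but the lowest WT signal was 1.22 times the highest OX signal. The log2 change was -0.80 ± 0.23, with an adjusted p of 0.0491 from limma that lay just inside the threshold. IRT1 did not pass in 10 of 15 alternatives, among them the removal of any single array, with adjusted p up to 0.142 without WT replicate 1.

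IRT2, a close relative of IRT1 with 2 annotated genes between them, had signals of 42.2, 15.5 and 21.7 in OX and 92.2, 80.0 and 39.7 in WT. OX replicate 1 was above WT replicate 3, so the genotypes overlapped. Its log2 change, -1.34 ± 0.40, was larger than that of IRT1, but its arrays varied more and it did not pass (adjusted p 0.0588 from limma). The 95% interval of the change ran from -2.28 to -0.41. It passed in 5 of 14 alternatives, which include an adjusted p under 0.10 in the same fit with all arrays. Others were the fits without OX replicate 1 (-1.70, adjusted p 0.0279 from limma) and without WT replicate 3 (-1.70, adjusted p 0.0412).

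NRAMP5, a transporter known for manganese and cadmium uptake in rice roots, had signals of 25.7, 18.0 and 17.1 in OX and 31.1, 17.3 and 19.1 in WT. The highest signal of each genotype came from replicate 1, and the other arrays lay together. The log2 change was -0.11 ± 0.31 with a 95% interval from -0.84 to 0.61 and an adjusted p of 0.833 from limma. The interval does not exclude a change of the size seen for IRT1. Its sign turned under quantile normalization (0.05) and without WT replicate 1 (0.12), and it passed in 0 of 14 alternatives.

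**Figure D2:**
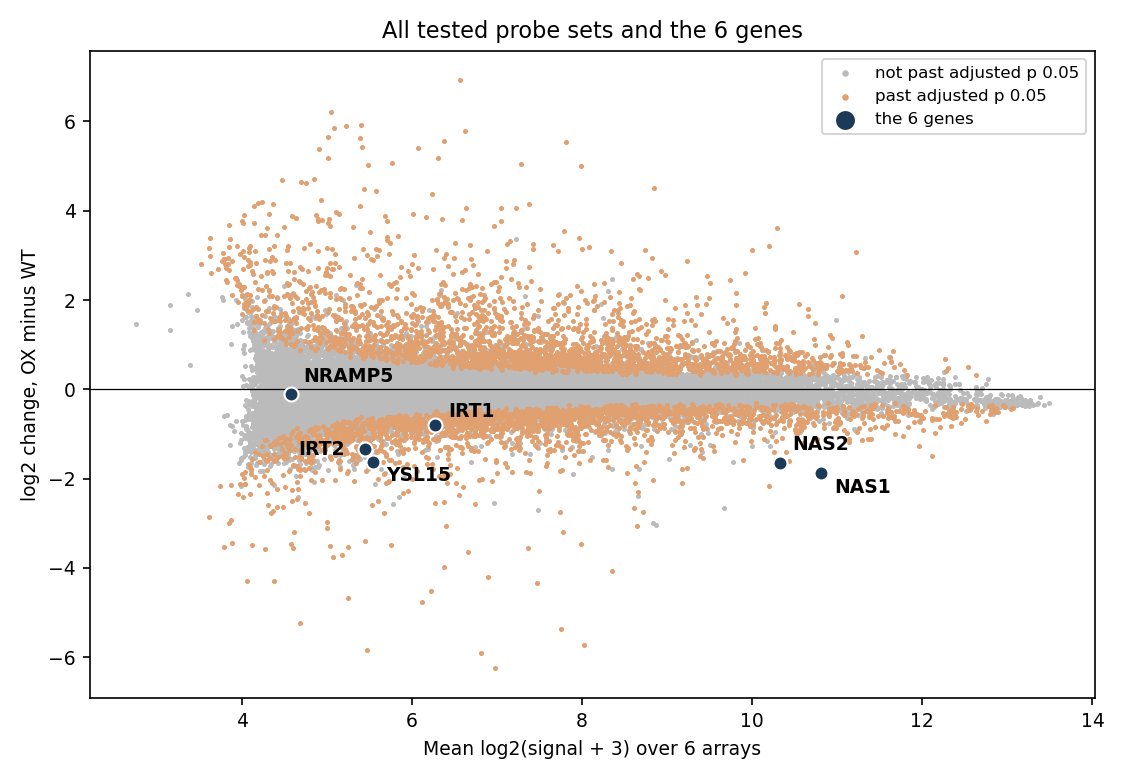
Log2 change, OX minus WT (y axis), against the mean log2(signal + 3) over the 6 arrays (x axis) for the 28456 tested probe sets. Orange points passed at an adjusted p under 0.05, grey points did not, and the labelled dark points are the 6 genes. NAS1 and NAS2 lie at -1.87 and -1.65 toward the bright end, and NRAMP5 lies within the grey band at the dim end.

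Among all tested probe sets, 132 had a change at or below that of NAS1, 213 at or below that of NAS2 and 223 at or below that of YSL15. The count was 436 for IRT2, 1919 for IRT1 and 13573 for NRAMP5. The median over the whole table was -0.09 as deposited and -0.05 under quantile normalization, which left NAS1 at -1.82, NAS2 at -1.62 and YSL15 at -1.54, all still past the threshold.

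NAS1, NAS2 and YSL15 varied among OX arrays more than most probe sets of like brightness. The SD of log2(signal + 3) over the OX arrays was 0.82 for NAS1, 0.72 for NAS2 and 0.61 for YSL15. Brightness was taken as the mean of log2(signal + 3) over the 6 arrays, which lies above the OX mean of these genes. Dimmer probe sets can vary more (a median SD of 0.36 over OX arrays around NRAMP5). The comparison can therefore overstate how far YSL15 stands out in OX. For the 500 tested probe sets closest in brightness to each, the median SD was 0.15, 0.14 and 0.26, and the share with a lower SD was 99.6%, 98.2% and 90.6%. Over WT arrays the SD was 0.28 for NAS1, 0.04 for NAS2 and 0.22 for YSL15, and 93.2%, 9.4% and 43.6% of the same probe sets had a lower one. IRT1 (0.36 in OX and 0.28 in WT) and NRAMP5 (0.28 in OX and 0.40 in WT) were closer to their surroundings, with 35.8% to 76.2% of like probe sets below them. IRT2 varied widely in both genotypes (0.66 in OX and 0.62 in WT).

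The arrays that carried the extremes differed between the genes. Relative to the WT mean on the log2 scale, NAS1 was at -2.70, -1.84 and -1.07 on OX arrays 1, 2 and 3, NAS2 at -1.93, -2.18 and -0.83 and YSL15 at -2.04, -1.92 and -0.92. For these 3 genes OX replicate 3 was the highest OX array, as it was for 29.7% of all tested probe sets. For IRT1, IRT2 and NRAMP5 it was OX replicate 1, as for 30.3% of all tested probe sets. Over all tested probe sets OX replicate 3 was also the OX array closest to each WT array. Its correlations with them were 0.9222 to 0.9256, against 0.9109 to 0.9215 for OX replicates 1 and 2. A lean of replicate 3 toward WT is thus not particular to these genes. In WT, replicate 1 was the highest array for 6 of the 6 genes, as it was for 33.9% of all tested probe sets. Without it 1 of the 6 genes passed, NAS2, against 4 with all arrays, 3 without WT replicate 2 and 4 without WT replicate 3. The number of all probe sets called lower was 941 without it and 2117 with all arrays. That drop is not particular to WT replicate 1. The number was 843 without WT replicate 2, 891 without WT replicate 3 and from 956 to 2902 without an OX array.

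**Figure D3:**
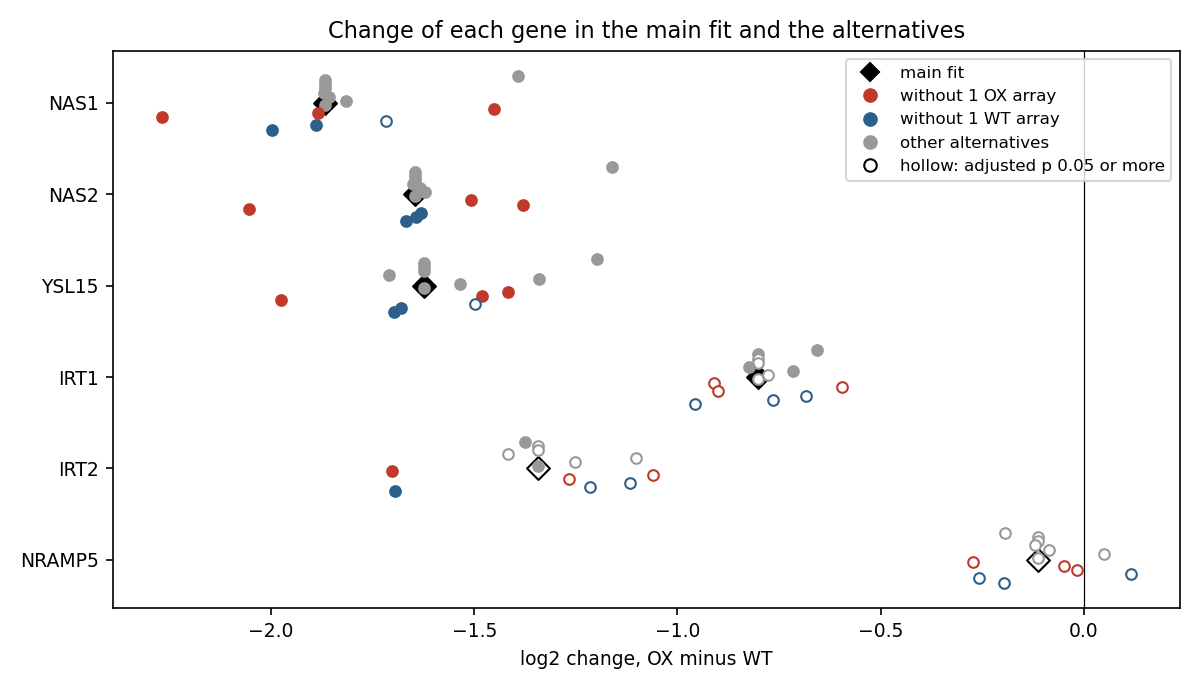
Log2 change, OX minus WT (x axis), of each gene with all arrays and a pseudocount of 3 (black diamonds), without 1 OX array (red), without 1 WT array (blue) and under the other alternatives (grey). Hollow symbols have an adjusted p of 0.05 or more from limma. NAS1, NAS2 and YSL15 stay at or below -1.16 throughout, and NRAMP5 lies on both sides of 0.

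The 8 names listed for nicotianamine and phytosiderophore synthesis matched 5 genes, NAS1 and NAS2 among them. The other tested genes did not pass with all arrays, but the call of NAS3 changed with 1 array. NAS3, the third nicotianamine synthase gene, had signals of 276.2, 744.1 and 240.3 in OX and 437.8, 574.1 and 1085.1 in WT, with a log2 change of -0.82 ± 0.46 (adjusted p 0.254 from limma). Its genotypes overlapped, and the 95% interval from -1.88 to 0.24 holds the changes of NAS1 and NAS2. NAS3 passed in 2 of 14 alternatives, without OX replicate 2, its highest OX array (-1.32, adjusted p 0.0324 from limma), and with array weights (-1.24, adjusted p 0.0432), while without WT replicate 3 the change was -0.45 (adjusted p 0.565). NAAT1, the nicotianamine aminotransferase that takes nicotianamine on toward the phytosiderophores, was at -0.13 ± 0.12, and SAMS2, an S-adenosylmethionine synthetase, at -0.24 ± 0.31. Thus 0 of the 3 other tested genes of this list passed limma in either direction. Of all 14616 tested genes, counted with 1 probe set each, 19.1% passed, 11.1% higher and 8.00% lower. At an unadjusted p under 0.05 from limma there were 0 of the 3, against 5334 of the 14616.

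The methionine salvage cycle returns methylthioadenosine left over by nicotianamine synthesis to methionine. Of 5 tested genes listed for it, 1 rose and 0 fell, beside 11.1% and 8.00% of all tested genes. The riser was LOC4348646, at 3.23 ± 0.17, whose synonyms include both IDI1 and ARD1 of this cycle and names of a heat shock factor. Its other probe set gave 0.29 (adjusted p 0.296 from limma), so the rise cannot be assigned to the salvage enzyme. MTK1, a methylthioribose kinase, was at -0.03 ± 0.09 and IDI2 at 0.12 ± 0.15. The gene matched as FDH was at 0.18 ± 0.13, but its synonyms are those of a formaldehyde dehydrogenase. ARD2, at 0.04 ± 0.09, shares its entry with the heat shock factor HSFA2D.

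Yellow stripe-like genes encode carriers of metal chelates. Among the 7 others tested, 1 rose and 2 fell, beside 11.1% and 8.00% of all tested genes. YSL14 had signals of 104.5, 90.8 and 83.9 in OX and 270.6, 220.3 and 244.4 in WT, and fell by 1.37 ± 0.14 on the log2 scale. YSL13 rose by 1.81 ± 0.15, to signals of 355.2, 408.7 and 372.0 in OX, against 89.2, 103.3 and 127.6 in WT. YSL6 fell by 0.37 ± 0.09 and did not pass in 8 of 14 alternatives. YSL9 (0.53 ± 0.23), YSL12 (0.13 ± 0.16) and YSL16 (0.43 ± 0.13), the brightest of those that did not pass, had positive changes, and YSL16 passed in 2 of 14 alternatives. The median change of the 7 was 0.13, against -0.02 over all tested genes. YSL2 had no probe set of its own here, and the carriers with a probe set under the filter were not tested.

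Of the 12 other tested ZIP and NRAMP genes, each counted by its brightest probe set, 2 rose and 0 fell. Over all tested genes the shares were 11.1% and 8.00%. The risers were LOC4338051 (ZIP7, also named ZIP3) at 0.51 ± 0.11 and LOC4342782 (ZIP8, also named ZIP1) at 0.49 ± 0.14, which did not pass in 3 and 8 of 14 alternatives. LOC4326394, named ZIP1 alone, had signals of 12.7, 0.9 and 14.4 in OX and 31.5, 30.6 and 25.7 in WT, and with a change of -1.65 ± 0.57 it did not pass (adjusted p 0.0876 from limma). NRAMP1, separated from NRAMP5 by 5 annotated genes, was at -0.50 ± 0.23, with overlapping signals of 3385.7, 2447.8 and 4034.2 in OX and 5203.8, 5442.6 and 3357.3 in WT. NRAMP4 had 5 tested probe sets, all with negative changes: the brightest was at -0.19 ± 0.18 (adjusted p 0.507 from limma), and 1 dimmer one passed, just inside the threshold, at -0.51 ± 0.14 (adjusted p 0.0494), with signals of 109.3, 88.9 and 106.6 in OX and 152.1, 128.5 and 155.5 in WT. ZIP4 (0.39 ± 0.31) and LOC4339082 (ZIP5, also named ZIP2, at 0.69 ± 0.42) did not pass either, and the list's median was 0.15.

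The 16 names listed as iron regulators matched 4 genes, all tested, and the names without a match were not measured here. None of the 4 passed limma's adjusted threshold, against 19.1% of all 14616 tested genes. At an unadjusted p under 0.05 from limma there were 2 of the 4, against 5334 of the 14616. LOC4332972, a basic helix-loop-helix factor that carries the names of both IRO2 and IRO3, had signals of 934.6, 716.3 and 1109.0 in OX and 1207.9, 1175.2 and 669.5 in WT, and its change was -0.12 ± 0.25. IDEF1, a factor that binds iron-deficiency-responsive elements, was at 0.34 ± 0.12 (adjusted p 0.104 from limma). The name NAC4 matched a pair of genes, LOC4327485 at 1.28 ± 0.38 (adjusted p 0.0550 from limma, passing in 4 of 14 alternatives) and LOC4336052 at 0.17 ± 0.31. The 26 names of metal storage, vacuolar and long-distance transport matched 8 genes, of which 4 were tested. Of these 4, 0 passed limma's adjusted threshold. All 4 had an unadjusted p under 0.05 from limma, as did 5334 of all 14616 tested genes. HMA5 was at -0.76 ± 0.23 (adjusted p 0.0617 from limma), with signals of 20.5, 32.6 and 31.4 in OX and 44.4, 47.2 and 55.6 in WT. It passed in 1 of 13 alternatives. The vacuolar iron transporter gene VIT1 was at -0.42 ± 0.15, MTP1 at -0.23 ± 0.10 and HMA4 at 0.30 ± 0.13.

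Both genes matched as TOM1 (LOC4330406) and TOM2 (LOC4349503) rose, by 0.53 ± 0.09 and 0.54 ± 0.13. They stood on the list of phytosiderophore exporters, but the match rests on these symbols alone and the second TOM2 probe set was at 0.01 (adjusted p 0.979 from limma), so no role is given to them here. TOM2 did not pass in 6 of 14 alternatives. Over the 7 iron lists together, without the 6 genes, 37 genes were tested, of which 6 rose and 2 fell, a share of 21.6% against 19.1% of all tested genes. That share lies near the background. The list genes that rose include LOC4348646, TOM1 and TOM2, and the 37 include FDH and ARD2. The place of these on the iron lists is uncertain, as described above.

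**Figure D4:**
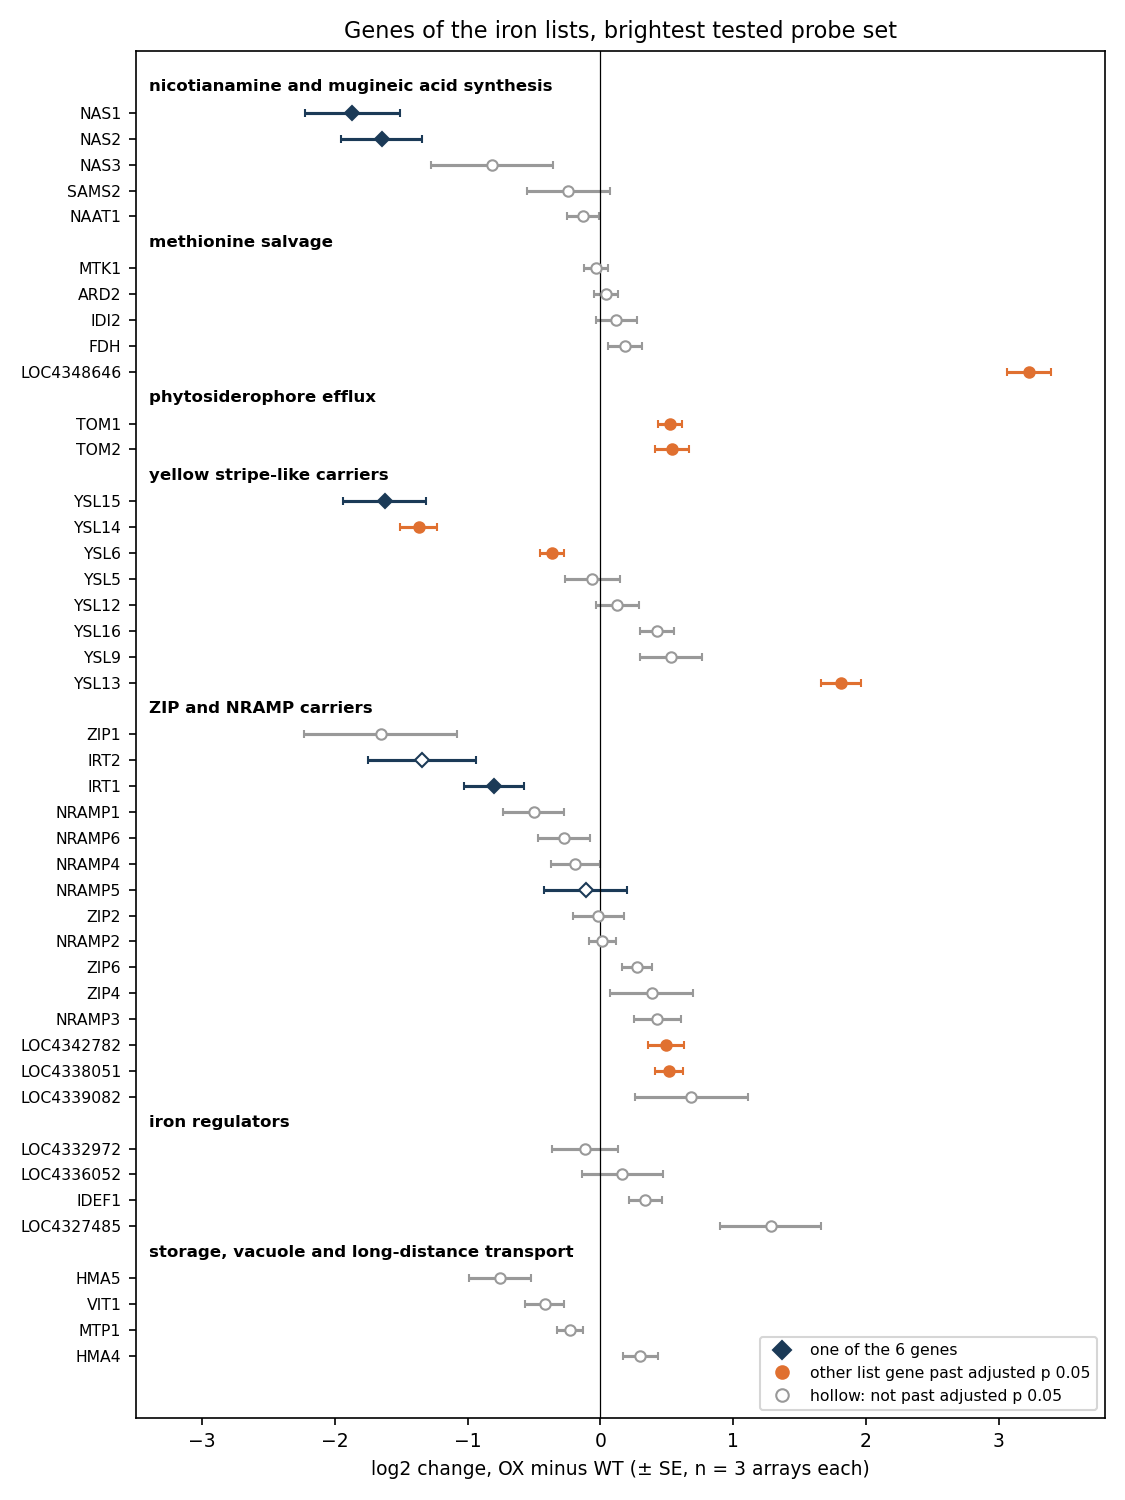
Log2 change, OX minus WT, with its standard error (x axis, n = 3 arrays per genotype) of the tested genes of the 7 iron lists, 1 probe set per gene. Diamonds are the 6 genes, orange circles other genes past an adjusted p of 0.05, and hollow symbols did not pass. NAS1, NAS2 and YSL15 lie left of the other genes of their lists, while most remaining genes lie between -1 and 1.

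The genes whose pattern came nearest to each of the 6 were sought among 2040 named genes, by the root mean square difference of their log2 deviations from the WT mean over the 6 arrays. Within the 6, NAS2 and YSL15 were nearest to each other (0.17), and NAS1 was nearer to YSL15 (0.28) than to NAS2 (0.39). MADS26 (LOC4344493), a MADS-box transcription factor gene, came first for NAS1 (0.35), NAS2 (0.17) and YSL15 (0.15). Its signals were 74.1, 73.7 and 147.6 in OX and 307.8, 324.3 and 234.8 in WT, with OX replicate 3 nearest to WT as for those genes. Next came LOC4341347, whose synonyms include D35 and those of several kaurene oxidase genes (0.41 for NAS1, 0.36 for NAS2 and 0.28 for YSL15), the plastid chaperone gene CLPC3 (0.47 for NAS1 and 0.30 for YSL15) and EUI1 (LOC4339131), a gibberellin-deactivating oxidase gene (0.36 for NAS2).

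IRT1 was nearest to the protein phosphatase gene OsPP2C09 (0.12), the 14-3-3 gene GF14B (0.14) and the gibberellin 20-oxidase gene GA20OX3 (0.14). IRT2 was nearest to OsC3H2 (0.26), AT4 (0.27) and R40C1 (0.27), and NRAMP5 to NRAMP4, ARF7 and OsC3H39 (0.14 each). These distances carry no test, and how close the nearest match of other probe sets lies was not computed.

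The labelled tissue was compared with markers of leaf and root. All 9 leaf marker genes with a probe set, among them those of rubisco, rubisco activase and light-harvesting proteins, lay above the filter, with summed signals of 40788.9 to 47009.0 in OX and 57119.6 to 63381.6 in WT. Of these 9, 4 fell and 0 rose, against 8.00% lower and 11.1% higher over all tested genes. They were the nitrate reductase gene NIA1 (-1.50 ± 0.10), the chloroplast regulators GLK1 (-0.63 ± 0.13) and GLK2 (-0.50 ± 0.10) and the plastid glutamine synthetase gene GLN2 (-0.38 ± 0.10), and 1 fell without WT replicate 1 or without OX replicate 3. The brightest others did not pass by their brightest probe set, CAB2R at -0.31 ± 0.10, rubisco activase (RCA) at -0.32 ± 0.11 and LHCP (LOC4333359) at -0.29 ± 0.12. A dimmer RCA probe set passed at -0.38 ± 0.10 (adjusted p 0.0425 from limma), and the remaining RCA probe sets did not. All 9 leaf markers had an unadjusted p under 0.05 from limma, as did 5334 of all 14616 tested genes. Of 10 root-list genes with a probe set, 4 lay under the filter, among them the silicon exporter gene Lsi2 with mean signals of 0.967 in OX and 0.967 in WT. Of the 6 tested, 3 fell and 0 rose, beside the same 8.00% and 11.1% of all tested genes. The phosphate transporter gene matched as PHT1-2, LOC4335115, which is also named PHT1-4, PT1 and PT4, fell (-0.85 ± 0.15). The others that fell were the silicon channel gene Lsi1 (-1.39 ± 0.17) and the aquaporin gene TIP2-2 (-0.58 ± 0.13). The aquaporin gene PIP2-5 went the other way, with signals of 35.8, 30.7 and 33.0 in OX and 21.3, 22.9 and 17.1 in WT, which did not overlap (0.63 ± 0.23, adjusted p 0.101 from limma), and HKT1;5 (-0.04 ± 0.29) and SCR1 (-0.15 ± 0.34) overlapped between the genotypes. The summed signals of the 10 were 3849.4 to 4966.4 in OX and 6245.7 to 7245.2 in WT, and without TIP2-2 374.1 to 459.2 in OX and 740.5 to 846.6 in WT. The leaf and root sums were thus lower in OX along with NAS1, NAS2 and YSL15, though not every root marker was, and their part in that result was not tested. In whole leaves, fewer cells of a type and less RNA per cell cannot be told apart.

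The 3'/5' signal ratio of an actin control pair, a sign of RNA quality, was 3.40, 2.16 and 2.22 in OX and 2.01, 1.53 and 1.84 in WT (exact permutation p = 0.1, two-sided, the smallest that 3 arrays against 3 allow). A second actin pair overlapped (4.63 ± 0.99 in OX and 3.72 ± 0.78 in WT, SD, n = 3 each, exact permutation p = 0.4), as did the GAPDH pair (4.02 ± 0.64 in OX and 4.74 ± 0.46 in WT, SD, n = 3 each, exact permutation p = 0.2). The part of RNA quality in the changes of the 6 genes was not tested.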

How the data were processed

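The authors deposited linear intensities, 1 per probe set, and MAS5 is named in the submitters' processing notes. Per the labels' protocols, 5 µg of total RNA was labelled with biotin. The mean of every array after trimming 2% at each end was 100.0, so no further scaling was applied. No detection calls were at hand to mark dim probe sets, so the sizes of their changes are uncertain. The number of arrays limits the precision.

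From 57381 probe sets, 187 controls were left out. Those averaging at least 16.8 on the 6 arrays (the median of the remaining values) were tested as log2(signal + 3), where 3 is near the 20th percentile (2.6). Low signals change less on this scale. The test was limma 3.58.1 (R 4.3.3) with genotype as the sole term, a variance trend in eBayes and Benjamini-Hochberg adjustment, checked on simulated data. Gene names came from the array's annotation and the RefSeq gene table, which held all 17905 genes and served for names and neighbours alone. No sequence was used here.

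The 6 genes, the lists and the tests were chosen with earlier results of these data known. Lists were matched by symbol or synonym, with the brightest tested probe set per gene. Names that matched no gene and genes without a tested probe set are not covered. Named are the 6 genes, every list gene that passed, the 3 brightest of each list that did not, and the 3 named genes nearest to each of the 6. IDI2, LOC4326394, LOC4336052, NRAMP4, HMA5 and the further probe sets of a gene were named after their values were seen. Of the iron-deficiency shoot markers, LOC4332972 was tested beside NAS1 and NAS2. Alternatives were pseudocounts of 1 and 12, no filter or a mean of at least 50, quantile normalization, no variance trend, array weights, the replicate number as a block, an adjusted p under 0.10, averaging the probe sets of a gene and the removal of each array.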

Additional observations from a re-analysis of the deposited data

How the results depend on the processing

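NAS2 passed in all 15 alternatives, NAS1 and YSL15 in 14 of 15, IRT1 in 5 of 15, IRT2 in 5 of 14 and NRAMP5 in 0 of 14. These counts include an adjusted p under 0.10 in the same fit with all arrays. Any gene that passed at 0.05 passes there too, so that alternative is no check on NAS1, NAS2, YSL15 or IRT1. The counts given above for the list genes leave it out and cannot be set directly beside these. Removal of each array in turn put the log2 change of NAS1 between -2.27 and -1.45, of NAS2 between -2.06 and -1.38, of YSL15 between -1.98 and -1.42, of IRT1 between -0.96 and -0.60, of IRT2 between -1.70 and -1.06 and of NRAMP5 between -0.27 and 0.12. IRT1 lost its call with no filter (-0.80), no variance trend (-0.80), quantile normalization (-0.78) and the replicate block (-0.80). IRT2 gained one with array weights (-1.37), the replicate block (-1.34) and an adjusted p under 0.10 (-1.34). NRAMP5 turned to 0.051 under quantile normalization. Of the 6 genes, 1 to 4 passed without a single array.

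Probe sets called higher and lower numbered 2461 and 2117, with array weights 3708 and 4237, with no filter 1914 and 1362 and at an adjusted p under 0.10 3437 and 3813, and between 1274 and 2631 and between 843 and 2902 without a single array. The 6 higher and 2 lower genes of the iron lists were 8 and 4 with array weights, 5 and 1 with no filter, 4 and 1 with no variance trend and 8 and 5 at an adjusted p under 0.10. They ran from 3 to 6 and from 1 to 3 without a single array. Same-numbered arrays did not deviate together (correlations across probe sets of 0.10, -0.01 and -0.06), and differently numbered pairs ran from -0.10 to 0.12. No pairing by number was seen, though 3 arrays per genotype cannot exclude one. With the replicate number as a block, 1869 probe sets were called higher and 1473 lower, and 3 and 1 genes of the iron lists. The causes of these differences were not tested. A stricter filter left out IRT2 and NRAMP5, and dim signals limit both.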
